A study of Mus musculus with 6 samples.

Results

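The genes of the MAL proteolipids and of the epithelial polarity and sorting machinery were followed in 4T1 breast cancer cells that had survived methotrexate. The 10 members, of 19933 genes measured, were Mal, Mal2, Ap1m2, Crb3, Llgl1, Llgl2, Pard6b, Pard3, Prom2 and Myo5b. They were chosen by function, with their MR13 and WTR- values on these same arrays already known, so their own differences are given as a description and were not tested. Each was represented by 1 probe set, the only one that the annotation paired with it. MR13 cells are descendants of 4T1 cells that outlived methotrexate (MTX), a folate antagonist, and were compared with untreated parental 4T1 cells, called WTR-. 4T1 cells come from a mammary carcinoma of the BALB/c mouse. The labels give a selection in 13 µg/ml MTX for up to 2 weeks, until colonies of surviving cells could be seen, whereas the text of the study names a different concentration and duration. Both groups had 3 arrays of total RNA from replicate wells, MR13 is 1 selected line, and p values thus measure the spread between wells and not between independent selections.

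Epithelial cells divide their surface into an apical side, which faces a lumen, and a basolateral side. The Crumbs complex and the PAR complex (PAR3, PAR6 and an atypical protein kinase C) mark the apical side and its border, and the Scribble complex (Scribble, DLG and LGL proteins) marks the basolateral side. The complexes restrict each other, and vesicle traffic through sorting adaptors, recycling endosomes and lipid rafts keeps the domains apart. MAL and MAL2 are small membrane proteins with a MARVEL domain that work in this traffic, MAL in direct transport to the apical membrane and MAL2 in transcytosis from the basolateral to the apical side, as shown in human and dog epithelial cell lines. Not all the members are apical proteins, since LGL proteins and the adaptor subunit encoded by Ap1m2 act on the basolateral side.

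Correlations across probe sets ranged between 0.998 and 0.9987 for arrays of the same group and between 0.9842 and 0.9865 for arrays of MR13 against WTR-, which describes the arrays since genes are not replicates. Several epithelial markers differed between the lines. Of 6 carcinoma markers, Krt8 did not pass the test (log2 difference 0.13, SE 0.06), whereas Krt18 (-0.19), Krt19 (-2.23), Epcam (-4.30), Cdh1 (-3.24) and Krt7 (-4.52) fell in MR13. Krt18 lost its call without MR13 replicate 1 or 3 or WTR- replicate 1 or 2 (adjusted p = 0.0516, 0.0564, 0.0557 and 0.0599), and Krt8 passed after median centring of the arrays (0.0396) or with a trended prior (0.0185). The summed linear signal of these markers was 19271 to 20926 on MR13 arrays and 30207 to 31992 on WTR- arrays. Of 7 fibroblast markers, Pdgfra (1.82) and Dcn (1.70) rose, the collagens Col1a1 and Col1a2 and the other 3 did not pass, and the summed signal was 1589 to 1800 in MR13 and 726 to 777 in WTR-. Lum was below the level of the dimmest 10% of genes in both groups (3.44 in MR13, 3.41 in WTR-). Of 5 measured leukocyte markers Cd68 rose (0.35), with sums of 698 to 746 in MR13 and 575 to 622 in WTR-, and none of the 4 endothelial markers passed (147 to 151 in MR13, 136 to 151 in WTR-). Such linear sums weigh the brightest gene most. That was Pdgfra for fibroblasts (mean log2 10.19 in MR13, 8.37 in WTR-) and Cd68 for leukocytes (9.12 and 8.77). The part of these marker shifts in the results that follow was not tested, and in RNA from whole cultures fewer cells with a transcript and less transcript per cell cannot be told apart.

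Of the 10 members, 9 were lower in MR13, with no overlap between the groups, and Llgl1 was the exception. All 3 MR13 values lay below all 3 WTR- values for 9 members, as they did for 25.2% of all genes. The median log2 difference of the 10 members (MR13 minus WTR-) was -1.47, against 0.01 over all genes. At least 2-fold lower were 7 members, against 2.1% of all genes. An adjusted p under 0.05 by limma over all genes was reached in the lower direction by 9 members, against 20.6% of all genes, and by none in the higher direction, against 17.0%. Because the members were chosen with this comparison known, nothing is read from these counts.

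**Figure D1:**
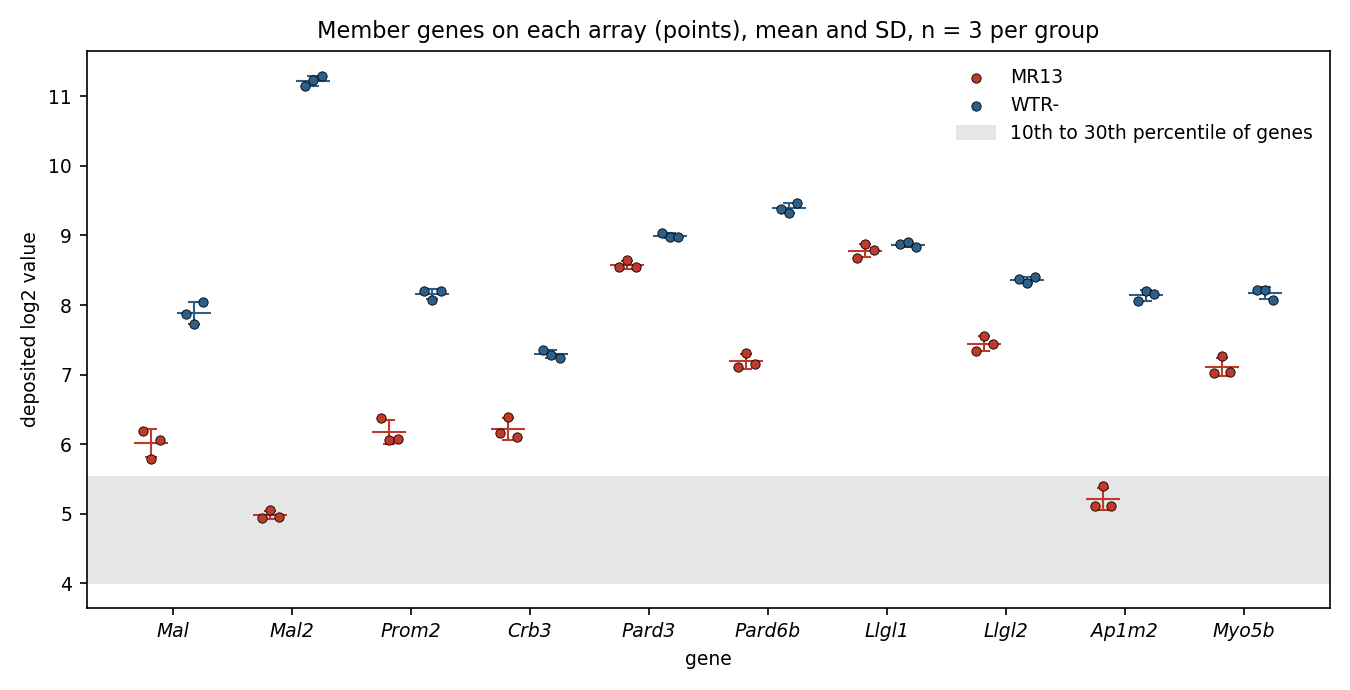
Deposited log2 values (y axis) of the 10 members (x axis) on 3 MR13 arrays (red) and 3 WTR- arrays (blue); each point is 1 array, with the mean and SD of the group. Only for Llgl1 do the groups overlap, and Mal2 and Ap1m2 in MR13 lie in the grey band between the 10th and 30th percentile of gene signals.

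Of the MAL proteolipid genes, Mal2 had the widest gap between groups of the 10 members and Mal a narrower one. Mal2 had log2 values of 4.94, 5.05 and 4.96 on the MR13 arrays, against 11.14, 11.23 and 11.29 on the WTR- arrays. The MR13 values were within 0.11 of each other, and the lowest WTR- value exceeded the highest MR13 value by 6.10. The log2 difference was -6.24 (SE 0.06), a 75.6-fold lower signal, and ranked 1 among the falls of all 19933 genes. In MR13 the Mal2 signal lay between the 10th percentile (4.02 to 4.06) and the 30th percentile (5.50 to 5.53) of gene signals on those arrays, and since background is part of such dim values the fold can be understated. Mal had values of 6.19, 5.79 and 6.05 in MR13 and 7.87, 7.73 and 8.05 in WTR-. Its difference of -1.87 (SE 0.11, 3.66-fold lower) was far smaller than that of Mal2, and its SD was the largest among the members in either group (0.20 in MR13, 0.16 in WTR-).

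The genes whose profile over the 6 arrays was closest to that of Mal2, each centred on its own mean, were Esrp1, Cldn4, Rab25, Serpinb5 and Dynap. Their root mean square distances were 0.41, 0.49, 0.51, 0.68 and 0.71 on the log2 scale. Esrp1 directs epithelial splicing, Cldn4 encodes a tight junction claudin, Rab25 an epithelial GTPase of the recycling endosome and Serpinb5 the serpin maspin. With 2 groups of 3 arrays, this likeness rests on the size of the difference between the groups, which for Esrp1 was -5.50 and for Dynap -4.85.

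Prom2 encodes prominin-2, a cholesterol-binding protein of membrane protrusions in epithelia. Its values were 6.38, 6.06 and 6.08 in MR13 and 8.20, 8.07 and 8.21 in WTR-. The groups were separated by 1.70 at their nearest values, with a difference of -1.99 (SE 0.09, 3.97-fold lower).

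Among the apical polarity complexes, Pard6b differed more than Crb3 and Pard3. Pard6b, which encodes a PAR6 scaffold that binds atypical protein kinase C and CDC42, had values of 7.11, 7.32 and 7.15 in MR13 and 9.39, 9.32 and 9.47 in WTR-. The difference was -2.20 (SE 0.07, 4.59-fold lower). Crb3, the Crumbs protein of most epithelia, had values of 6.16, 6.39 and 6.10 in MR13 and 7.36, 7.29 and 7.24 in WTR-. The groups were 0.85 apart at their nearest values, and the difference was -1.08 (SE 0.08). Pard3, the scaffold that places the PAR complex at cell junctions, had values of 8.54, 8.64 and 8.55 in MR13 and 9.04, 8.98 and 8.97 in WTR-. Its difference was the smallest among the members whose groups did not overlap, -0.42 (SE 0.05, 1.34-fold lower).

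The LGL genes, whose products oppose the PAR complex from the basolateral side, did not differ alike. Llgl2 had values of 7.34, 7.56 and 7.43 in MR13 and 8.37, 8.32 and 8.40 in WTR-, a difference of -0.92 (SE 0.07, 1.89-fold lower). Llgl1 had values of 8.68, 8.87 and 8.79 in MR13 and 8.87, 8.90 and 8.83 in WTR-. The highest MR13 value lay within the WTR- range, and the difference of -0.09 (SE 0.06) was within the spread of the MR13 arrays (0.19).

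The sorting and transport members were both lower in MR13. Ap1m2, which encodes the epithelium-specific µ1B subunit of the clathrin adaptor AP-1, had values of 5.12, 5.39 and 5.12 in MR13 and 8.05, 8.21 and 8.16 in WTR-. The difference was -2.93 (SE 0.08, 7.62-fold lower), the second in size after Mal2 among the members, and as with Mal2 the MR13 values lay below the 30th percentile of gene signals. Myo5b, a motor that moves recycling endosomes and whose loss causes microvillus inclusion disease in humans, had values of 7.03, 7.26 and 7.04 in MR13 and 8.22, 8.22 and 8.08 in WTR-. The difference was -1.06 (SE 0.08, 2.09-fold lower).

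Replicate 2 was the highest of the 3 MR13 arrays for 8 of the 10 members, all except Mal and Prom2, and it was the highest for 44.6% of all genes and for 42.9% of the genes called lower in MR13. Without MR13 replicate 2 the median log2 difference of the 10 members was -1.46, against -1.47 with all arrays.

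The promoters of the members, whether or not they were lower in MR13, were read for the E-box CACCTG or CAGGTG. These are the same site on opposite strands and the sequence that repressors of epithelial genes such as the ZEB and SNAI proteins can bind. RefSeq windows of 300 bases (build GRCm38.p6, 250 before to 50 after a transcript start) were matched for 7 of the 10 members, in 9 windows. An E-box was in 5 of these windows, from Crb3, Ap1m2, Pard6b and Pard3, against 20.2% of all 32851 windows. The windows of Mal, Prom2 and Llgl1 held no E-box, and no window was matched for Mal2, Llgl2 and Myo5b. Both Crb3 windows, which overlap and are shifted by 30 bases, and the Ap1m2 window held 4 E-boxes each, and 18 of all windows (0.0548%), these 3 included, held at least 4. That count of 4 was chosen after the members' windows were seen. The GRHL motif AACCGGTT, which reads alike on both strands, was in none of the member windows and in 0.146% of all windows. Of the 2 Pard3 windows, 1 held 3 and the Pard6b window 2. Of the 4 genes with an E-box, 3 were at least 2-fold lower in MR13. So were Mal (-1.87) and Prom2 (-1.99), whose windows held no E-box, whereas Llgl1, also without one, was not. Because the members were chosen with their values known, no link between E-boxes and the differences is read from this. The windows of the 3 lower genes with an E-box are shown 5′ to 3′ with the E-boxes in capitals: Ap1m2 (chr9:21312284-21312583, minus strand), Crb3 (chr17:57061951-57062250, plus strand) and Pard6b (chr2:168080754-168081053, plus strand).
Ap1m2: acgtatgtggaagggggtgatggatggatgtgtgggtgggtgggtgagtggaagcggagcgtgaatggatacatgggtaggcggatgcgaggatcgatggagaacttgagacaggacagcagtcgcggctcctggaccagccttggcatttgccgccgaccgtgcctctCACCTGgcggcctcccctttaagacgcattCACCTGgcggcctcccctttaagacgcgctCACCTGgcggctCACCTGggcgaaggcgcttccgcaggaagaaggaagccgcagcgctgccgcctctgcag
Crb3: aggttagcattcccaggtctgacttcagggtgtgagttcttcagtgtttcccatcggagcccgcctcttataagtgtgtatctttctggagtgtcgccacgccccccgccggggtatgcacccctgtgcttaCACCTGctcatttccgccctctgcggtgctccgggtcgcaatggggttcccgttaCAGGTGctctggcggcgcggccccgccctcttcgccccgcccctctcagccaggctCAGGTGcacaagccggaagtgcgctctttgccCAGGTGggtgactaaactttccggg
Pard6b: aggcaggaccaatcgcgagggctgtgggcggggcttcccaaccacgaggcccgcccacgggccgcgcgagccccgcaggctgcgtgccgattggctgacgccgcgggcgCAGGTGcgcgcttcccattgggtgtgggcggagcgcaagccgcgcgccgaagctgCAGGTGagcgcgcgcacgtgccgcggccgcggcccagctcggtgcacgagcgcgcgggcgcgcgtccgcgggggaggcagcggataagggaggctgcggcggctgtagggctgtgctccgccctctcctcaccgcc
In the Ap1m2 window, a stretch of 28 bases that holds an E-box occurs as 2 exact copies. These matches describe the sequence, and binding at them was not measured.

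Most of the members have paralogs that were not chosen with them. Ap1m1, which encodes the µ1A subunit of AP-1 found in most cells, was at 10.49 ± 0.05 in MR13 and 10.48 ± 0.04 in WTR- (SD, n = 3 each), which did not pass (log2 difference 0.01, SE 0.05, adjusted p = 0.948 by limma). Of the PAR6 paralogs, Pard6g rose (0.54, SE 0.06, adjusted p = 1.04e-04) and Pard6a fell slightly (-0.26, SE 0.07, adjusted p = 0.012), against -2.20 for Pard6b. Of the other class V myosins, Myo5c, which also serves epithelial cells, fell by 1.04 (SE 0.08, adjusted p = 1.02e-05), close in size to Myo5b, and Myo5a rose by 0.30 (SE 0.05, adjusted p = 0.00156). Mall, the MAL-like gene, fell by 1.37 (SE 0.12, adjusted p = 1.97e-05), whereas Pllp, which encodes plasmolipin of the same family, was at 5.74 ± 0.10 in MR13 and 5.66 ± 0.01 in WTR- (adjusted p = 0.385). Prom1 (0.03), Crb1 (-0.02), Crb2 (0.07) and Pard3b (0.07) did not pass. Prom1 and Crb1 were dim in both groups, with means of 4.82 and 4.89 in MR13 and 4.79 and 4.92 in WTR-, where background can hide a change.

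**Figure D2:**
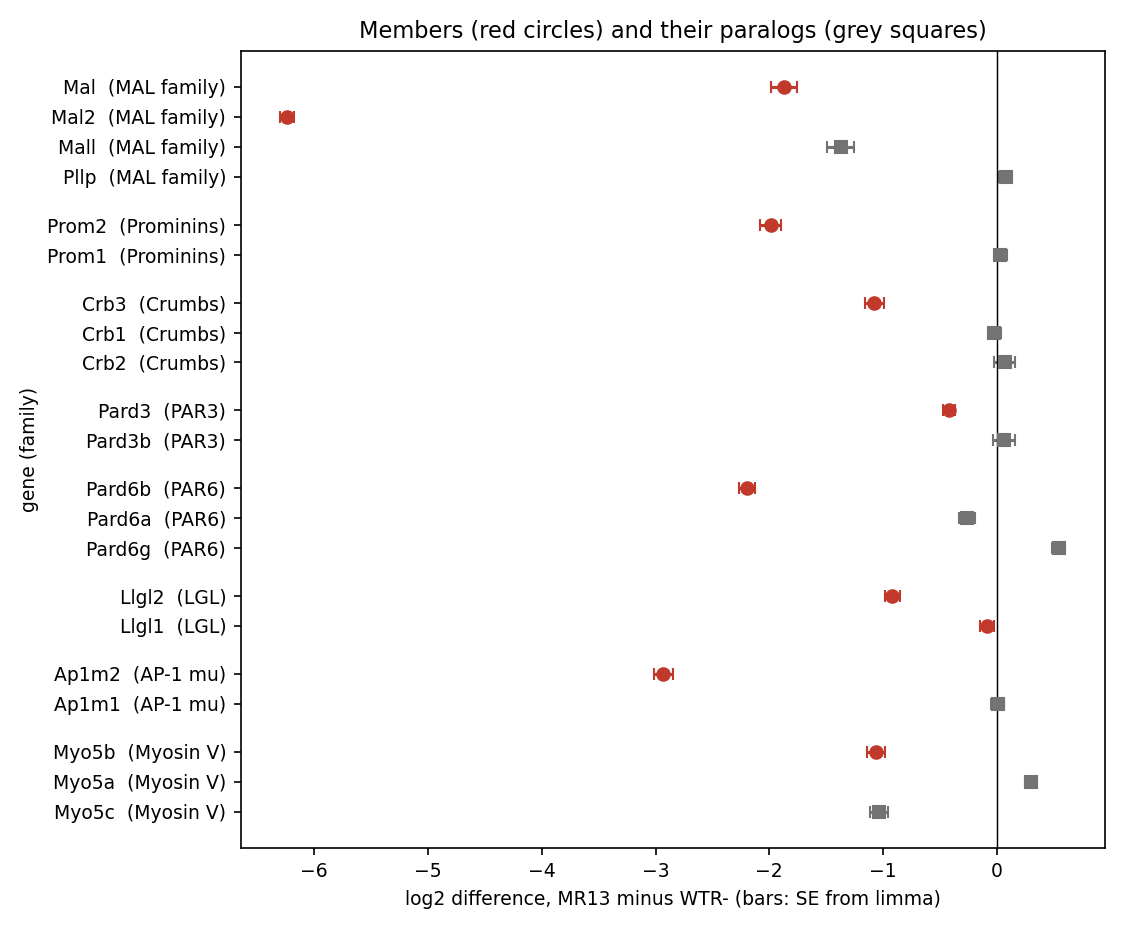
The x axis gives the log2 difference, MR13 minus WTR-, of each member (red circles) and of its paralogs (grey squares), grouped by family (y axis); bars are SEs from limma. Mal2 lies at -6.24 and Ap1m2 at -2.93, while Ap1m1 lies at 0.01 and Pard6g at 0.54.

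The other genes of polarity and apical traffic were taken from 10 lists of textbook components, without the members. The lists were chosen with earlier results of these data known, so their counts are given as a description. Of 126 genes, 124 were measured. Of these, 37 (29.8%) fell and 24 (19.4%) rose, against 20.6% and 17.0% of all genes. In either direction 49.2% were called, against 37.6% of all genes. Their median log2 difference was 0.001, beside -1.47 for the members and 0.01 for all genes.

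**Figure D3:**
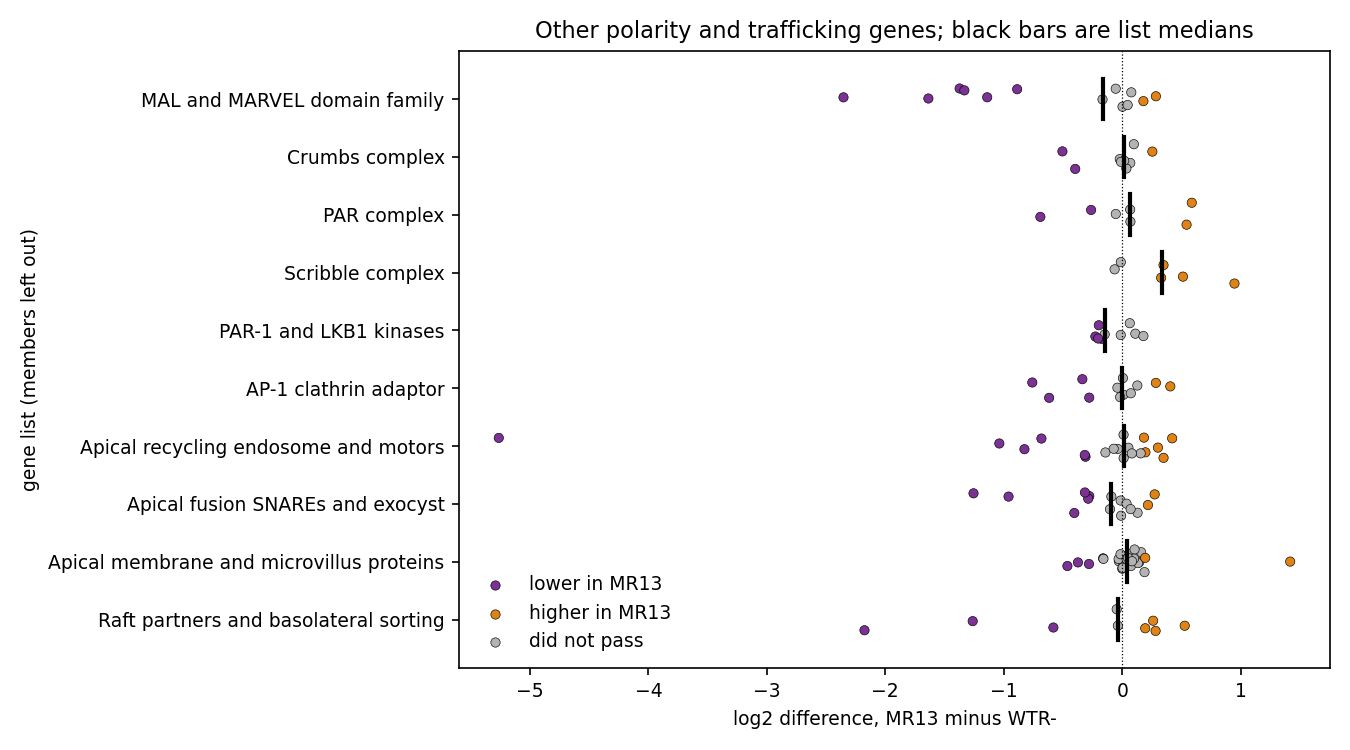
The x axis gives the log2 difference, MR13 minus WTR-, of every measured gene of 10 lists (y axis), members left out; colours show genes that fell, rose or did not pass, and black bars the medians. Rab25 lies farthest to the left at -5.26, 4 of 6 Scribble complex genes rose, and the list medians lie between -0.17 and 0.34.

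In the MAL and MARVEL domain family, 6 of 13 genes fell and 2 rose, with a median of -0.17. Marveld2 (tricellulin, -2.35, SE 0.08, adjusted p = 9.31e-08), Marveld3 (-1.64, SE 0.07, adjusted p = 3.69e-07) and Mall fell the most. Occludin (Ocln, -1.33), named after its values were seen, fell with Marveld2 and Marveld3, and all 3 are MARVEL proteins of tight junctions. The Marveld2 signal was 6.28 ± 0.16 in MR13 and 8.63 ± 0.06 in WTR- (SD, n = 3 each).

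The partners of Crb3, Pard3 and Pard6b moved in both directions. In the Crumbs complex 2 of 9 genes fell and 1 rose, with a median of 0.02. Patj, which encodes a scaffold of the complex, fell by 0.51 (SE 0.06, adjusted p = 1.23e-04) and the angiomotin gene Amot by 0.40 (adjusted p = 8.07e-04), while the scaffold gene Lin7c rose by 0.25 (adjusted p = 0.00314). In the PAR complex 2 of 7 fell and 2 rose, with a median of 0.07. The atypical protein kinase C gene Prkci fell to 10.53 ± 0.07 in MR13, against 11.22 ± 0.02 in WTR- (SD, n = 3 each, log2 difference -0.69, adjusted p = 1.41e-05), whereas Tiam1, an exchange factor for RAC1 that binds PAR3, rose by 0.59 (adjusted p = 9.23e-05).

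The Scribble complex includes the LGL proteins, and of their genes Llgl2 was lower in MR13, as given above. Of its 6 measured genes other than Llgl1 and Llgl2, none fell and 4 rose, with a median of 0.34. The DLG scaffold genes Dlg4 (0.95, SE 0.05, adjusted p = 1.53e-06), Dlg3 (0.51, adjusted p = 3.45e-04) and Dlg5 (0.35, adjusted p = 0.00218) rose the most. The fourth, named after its values were seen, was Scrib itself (0.33). Among the PAR-1 and LKB1 kinases and their cofactors, 4 of 9 fell and none rose, all by small amounts, with a median of -0.15. Mark3 (-0.23, adjusted p = 0.0121), Cab39l (-0.20, adjusted p = 0.0134) and Mark2 (-0.20, adjusted p = 0.0416) were among them, and Mark2 lost its call without MR13 replicate 1 (adjusted p = 0.115) or 3 (0.122) or WTR- replicate 1 (0.13).

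Around Ap1m2, 4 of the 12 other genes of the AP-1 clathrin adaptor list fell and 2 rose, with a median of -0.01. The clathrin light chain gene Cltb fell by 0.76 (SE 0.07, adjusted p = 2.60e-05) and the large adaptor subunit gene Ap1g2 by 0.62 (adjusted p = 2.23e-04), while the β1 subunit gene Ap1b1 rose by 0.41 (adjusted p = 9.88e-04).

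Around Myo5b, 6 of 19 genes of the apical recycling endosome and its motors fell and 5 rose, with a median of 0.01. Rab25 stood far from the rest, at 5.81 ± 0.17 in MR13 and 11.07 ± 0.03 in WTR- (SD, n = 3 each, -5.26, 38.4-fold lower, adjusted p = 1.32e-09). Myo5c and Rab3ip, which encodes an activator of RAB8 (-0.83, adjusted p = 2.06e-05), fell as well. Of the related GTPase genes, named after their values were seen, Rab11a did not pass (-0.04) and Rab11b rose by 0.42. Among the apical fusion SNAREs and the exocyst, 6 of 15 fell and 2 rose, with a median of -0.09. The apical syntaxin gene Stx3 fell by 1.26 (SE 0.09, adjusted p = 8.56e-06), the exocyst gene Exoc6 by 0.96 (adjusted p = 7.75e-07) and the SNARE gene Vamp8 by 0.40 (adjusted p = 0.00155).

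Genes of the apical membrane and microvilli, the setting of Prom2, mostly did not pass. Of 25, 4 fell and 2 rose, or 24.0% called against 37.6% of all genes, with a median of 0.04. Several that did not pass were dim in both groups, where background can hide a change. Among them were Cdhr2 (mean log2 4.62 in MR13 and 4.62 in WTR-), Muc15 (4.31 and 4.34) and Muc20 (5.07 and 5.06). The lower share of calls is thus not read as stability of these genes. Muc1, an apical mucin of glandular epithelia, rose by 1.42 (SE 0.09, 2.67-fold, adjusted p = 2.85e-06), to 7.93 ± 0.14 in MR13, against 6.52 ± 0.12 in WTR- (SD, n = 3 each). The scaffold gene Slc9a3r1 (-0.46, adjusted p = 2.02e-04) and the actin-bundling protein gene Espn (-0.37, adjusted p = 0.00122) fell. Among raft partners and basolateral cargo, 3 of 9 fell and 4 rose, with a median of -0.04. The caveolin genes Cav1 (-2.18, SE 0.12, adjusted p = 1.75e-06) and Cav2 (-1.26, SE 0.06, adjusted p = 4.42e-07) and the transferrin receptor gene Tfrc (-0.58, adjusted p = 2.16e-05) fell. The caveolar coat gene Cavin1, named after its values were seen, rose by 0.53.

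Position in the genome was not used to choose the members, and the 3 nearest measured genes on each side of each member were therefore compared. Of 56 such genes, 17 (30.4%) fell and 10 (17.9%) rose, against 20.6% and 17.0% of all genes. In either direction 48.2% were called, against 37.6% of all genes, with a median of -0.01. Mal2 was flanked by Colec10, which did not pass (0.18, adjusted p = 0.139), and by Ccn3, which encodes a matricellular protein and rose to 10.52 ± 0.02 in MR13, against 7.82 ± 0.03 in WTR- (SD, n = 3 each, 2.71, adjusted p = 2.86e-09). Neither of these neighbours was called lower, but Colec10 was dim in both groups (4.80 in MR13, 4.62 in WTR-), where a fall could hardly be seen. Farther out, and named after their values were seen, Samd12 was called lower (-0.38) and Taf2 higher (0.53). Prom2 and Mal lie close together, with Zfp661 (-0.20, adjusted p = 0.0624) and Mrps5 (0.04, adjusted p = 0.666) between them, neither of which passed, although Zfp661 did where the dimmest 30% of genes were left out (adjusted p = 0.0388). On the outer side of Prom2, the calcium-binding protein gene Kcnip3 rose by 0.29 (adjusted p = 0.00935), and on the outer side of Mal lies its relative Mall, which fell.

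**Figure D4:**
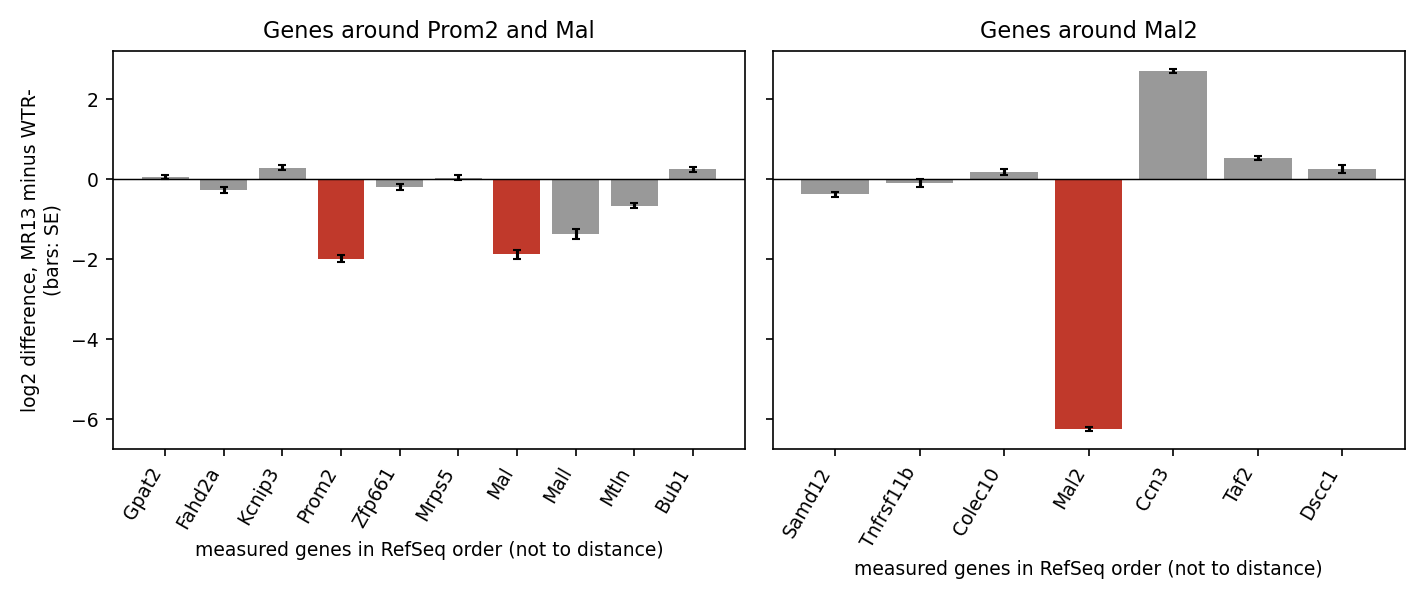
Log2 difference (MR13 minus WTR-, y axis) of measured genes in RefSeq order (x axis, not to distance) around Prom2 and Mal (left) and around Mal2 (right); red bars are members, grey bars other genes, and error bars are SEs. Zfp661 and Mrps5 between Prom2 and Mal lie at -0.20 and 0.04, and Ccn3 next to Mal2 lies at 2.71.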

How the data were processed

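Total RNA of 6 samples, 3 of MR13 and 3 of WTR- cells, was hybridised to Affymetrix Mouse Gene 1.0 ST arrays. The authors deposited log2 values that they had normalized between arrays. The submitters' processing notes name affy and limma. Their versions, the background correction and the summarization are not given in the sources used here. Medians of the arrays were 6.572 to 6.621, and the number of arrays limits the precision. Of 28350 probe sets, 21780 had 1 gene symbol, 1618 several and 4952 none in the annotation. The probe set with the highest mean stood for each of 19933 genes.

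The fit used limma 3.58.1 in R 4.3.3 (lmFit and eBayes, MR13 against WTR-, two-sided, no covariate), with Benjamini-Hochberg adjustment over all genes and a call at an adjusted p under 0.05. The scripts were tested on simulated data. Differences are MR13 minus WTR- on the log2 scale, with SE from limma. Members and lists were chosen with earlier results of these data known. Named from each list were the 3 called genes with the largest differences and no overlap between groups, with the 5 genes most like Mal2 and the nearest neighbours of Mal2, Prom2 and Mal; paralogs were added by family. Some list genes are not reported here. Gene order was from RefSeq (GRCm38.p6). Alternatives were quantile normalization, median centring, leaving out the dimmest 30% of genes, averaging probe sets, a trended robust prior, a replicate block, leaving out each array, and the methods' t-test, which the study does not state for these arrays.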

Additional observations from a re-analysis of the deposited data

How the results depend on the processing

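The members kept their sign under all 11 alternatives, with Mal2 between -6.28 and -6.20 and Llgl1 between -0.13 and -0.02, and only Pard3 moved by more than the spread between replicates (-0.35 after quantile normalization). Leaving out dim genes, averaging probe sets and the replicate block could not change a member's difference, so these alternatives say nothing about its sign. With each array left out in turn, the median difference of the members lay between -1.51 and -1.45, the genes called over all genes between 6716 and 6971 (7497 with all arrays), the list genes that fell between 33 and 37 and those that rose between 20 and 24, and the neighbours that rose between 8 and 10. Quantile normalization gave 31 list genes and 15 neighbours that rose, against 24 and 10, and centring put the median difference of all genes at 0.05. Between MR13 and WTR- arrays, r of deviations was 0.128, -0.001 and 0.182 for equal replicate numbers and -0.197 to 0.053 for unequal ones. These values do not settle whether the replicate numbers pair the samples. With a replicate block 35 list genes fell and 23 rose, and Mark2 (adjusted p = 0.0621) lost its call. Beside the changes given with the results for Mark2, Krt8, Krt18 and Zfp661, Mark2 lost its call after quantile normalization (0.0716), centring (0.0711) and in the methods' t-test (0.104), as did Pard6a (0.0547) and Kcnip3 (0.0537) in that t-test. Of the markers, Pdgfrb passed with the block (0.0397) and without WTR- replicate 1 (0.0247), Itgam without MR13 replicate 1 (0.0487) and Lyz2 after centring (0.0438). The other named genes stayed on their side of the threshold under each alternative that included them. The t-test called 34 list genes lower and 23 higher after Benjamini-Hochberg adjustment, and 40 and 30 at the study's unadjusted threshold. Dim signals, such as Mal2 and Ap1m2 in MR13, limit the size of a fold.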

Other observations

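At 166.6 kb from Myo5b, and outside the rule for naming genes, the endothelial lipase gene Lipg had log2 values of 5.98, 6.12 and 6.33 in MR13, against 9.62, 9.64 and 9.65 in WTR-. It differed by -3.49 (SE 0.08, adjusted p = 1.23e-08 by limma), with all MR13 values below all WTR- values, and was chosen after its values were seen. Myo5b itself differed by -1.06. The measured genes between Myo5b and Lipg were called lower, Acaa2 among them (-0.50, SE 0.06, adjusted p = 2.11e-04). Of the genes around the other members, Slc44a2, a choline transporter-like gene beside Ap1m2, fell by 0.81 (adjusted p = 2.62e-06), while Cdkn2d on the other side of Ap1m2 rose by 0.51 (adjusted p = 1.75e-04). Tomm20 (-0.92) and Rbm34 (-0.89) near Pard3 fell more than Slc44a2. All of these were also chosen after their values were seen.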
